A study of Mus musculus with 4 samples.

Results

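Astrocytes are the glial cells that clear glutamate, potassium and water from the space around synapses, share metabolites through gap junctions and store glycogen. In injury and ageing they can become reactive, a state in which intermediate filament and acute-phase genes rise. The 34 genes described here are widely used markers of astrocyte identity together with genes of reactivity. A row of the value table carried the symbol of 33 of them, out of 19505 gene symbols on 19572 named transcript clusters. Each of the 33 had 1 row. Glul, which encodes glutamine synthetase, was not analysed here.

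RNA came from the brain cortex of male SAMR1 mice, the normally ageing control line of the senescence-accelerated mouse series, all of them caged singly for 4 months from an age of 7 months. At 11 months of age 1 group began a month of daily oral TCQA, the polyphenol tricaffeoylquinic acid, at a dose of 5 mg/kg, and the other received MilliQ water. Each group had 2 Clariom S arrays, 4 in all, and the labels do not say whether an array held RNA of 1 mouse or of several, so a p-value reflects only how far these samples scatter, and that scatter may be technical. The number of arrays limits the precision of every value. The question was whether the astrocyte transcripts of the cortex differed after TCQA.

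The values are the authors' deposited log2 signals, on which a difference of 1 is a 2-fold change. The array medians lay between 6.98 and 7.04. The 5222 negative control probe sets had a median of 6.98 and a 95th percentile of 11.06. Both group means exceeded that percentile for 13 of the 33 astrocyte genes, among them Slc1a2, Aldoc, Clu and Gja1. Both lay below the negative control median for Atp13a4, Lcn2 and Cd44, so that the differences of those 3 are uncertain in size. In bulk tissue fewer astrocytes and less RNA per astrocyte cannot be told apart.

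**Figure D1:**
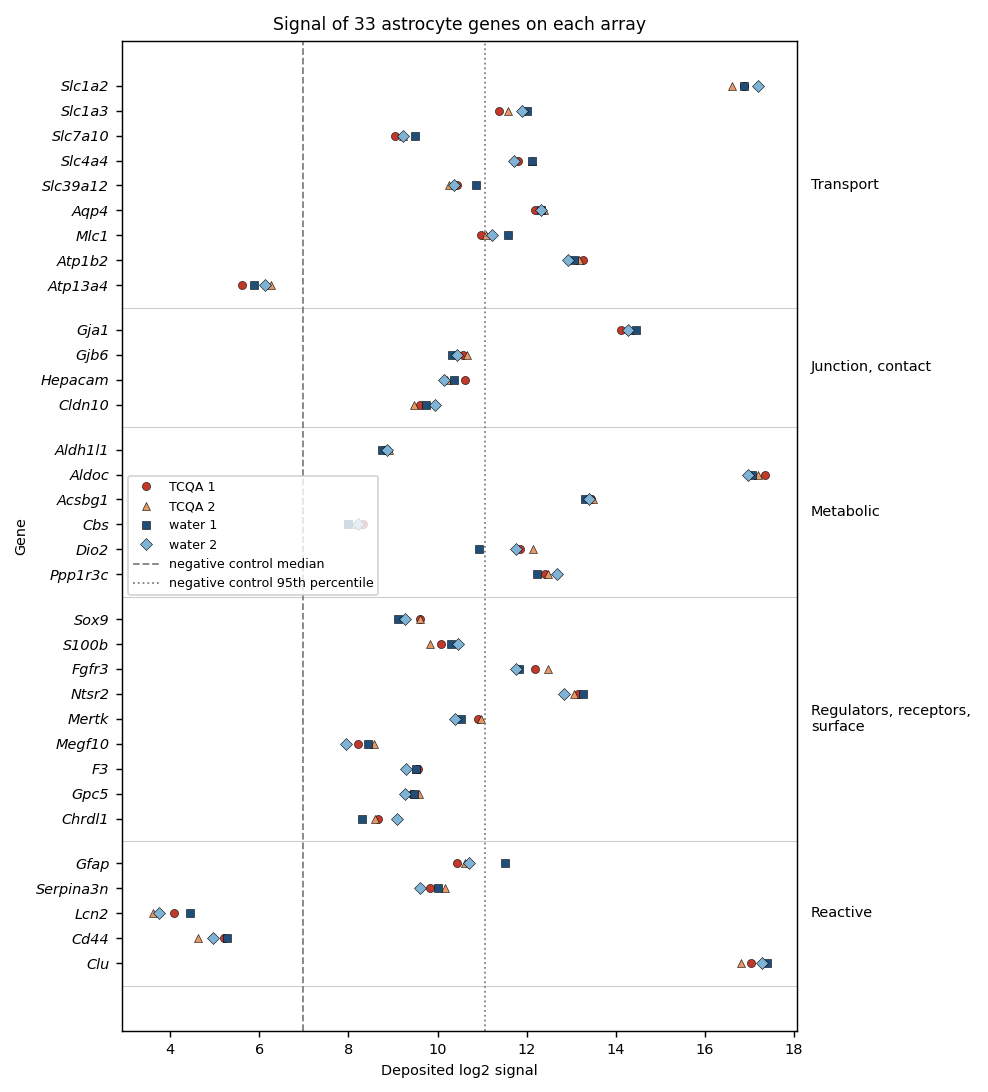
Deposited log2 signal (x axis) of the 33 measured astrocyte genes (y axis, by role) on the TCQA arrays (circles and triangles) and the water arrays (squares and diamonds), with the median (6.98) and the 95th percentile (11.06) of the negative control probe sets as vertical lines. The 4 points of most genes lie close together, Gfap and Dio2 have 1 distant point in water 1, and Lcn2, Cd44 and Atp13a4 lie left of the negative control median.

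The astrocyte genes as a set stood at nearly the same level in both groups. Of the 33, 17 (against 50.5% of all named transcript clusters) were higher and 16 lower after TCQA, with a median log2 difference of 0.05, against 0.0028 over all named transcript clusters. The size of the difference, without its sign, had a median of 0.22, against 0.19 over all named transcript clusters. Differences ran from -0.58 for Gfap to 0.66 for Dio2, so that the widest was 1.58-fold, and 24 of the 33 were under 0.3 in size.

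With limma and Benjamini-Hochberg adjustment over all 19572 transcript clusters, 0 astrocyte genes passed, and their smallest adjusted p was 0.673. An unadjusted p under 0.05 was reached by 3 of 33 (9.09%), Fgfr3 and Mertk higher and Slc1a3 lower after TCQA, against 7.37% of all named transcript clusters (3.48% higher and 3.89% lower). Both limits that the study set together, on the unadjusted p (0.05) and on the fold (2-fold), were passed by 0, against 0.664% of all. The TCQA and water arrays did not overlap for 16 of 33 (48.5%), against 39.2% of all transcript clusters. TCQA was above for 9 and below for 7, against 19.9% and 19.2% of all. The 16 include Slc7a10 and F3, whose groups lay only 0.00048 and 0.0013 apart. In this fit each share given here was close to that over all transcript clusters, dim ones included. The count at an unadjusted p under 0.05 was 8 of 33 (24.2%, against 8.12% of all) with limma-trend, which lets the variance prior follow the signal, and 6 of 30 (against 9.17% and 9.18%) with either filter on dim signals. The 95% intervals of limma excluded a 2-fold change in either direction for 30 of the 33 genes, the exceptions being Fgfr3, Dio2 and Gfap. However, the 30 include Atp13a4, Lcn2 and Cd44, whose signals lay at background level. The share of all transcript clusters with such an interval was not counted, and their median SE was 0.22.

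**Figure D2:**
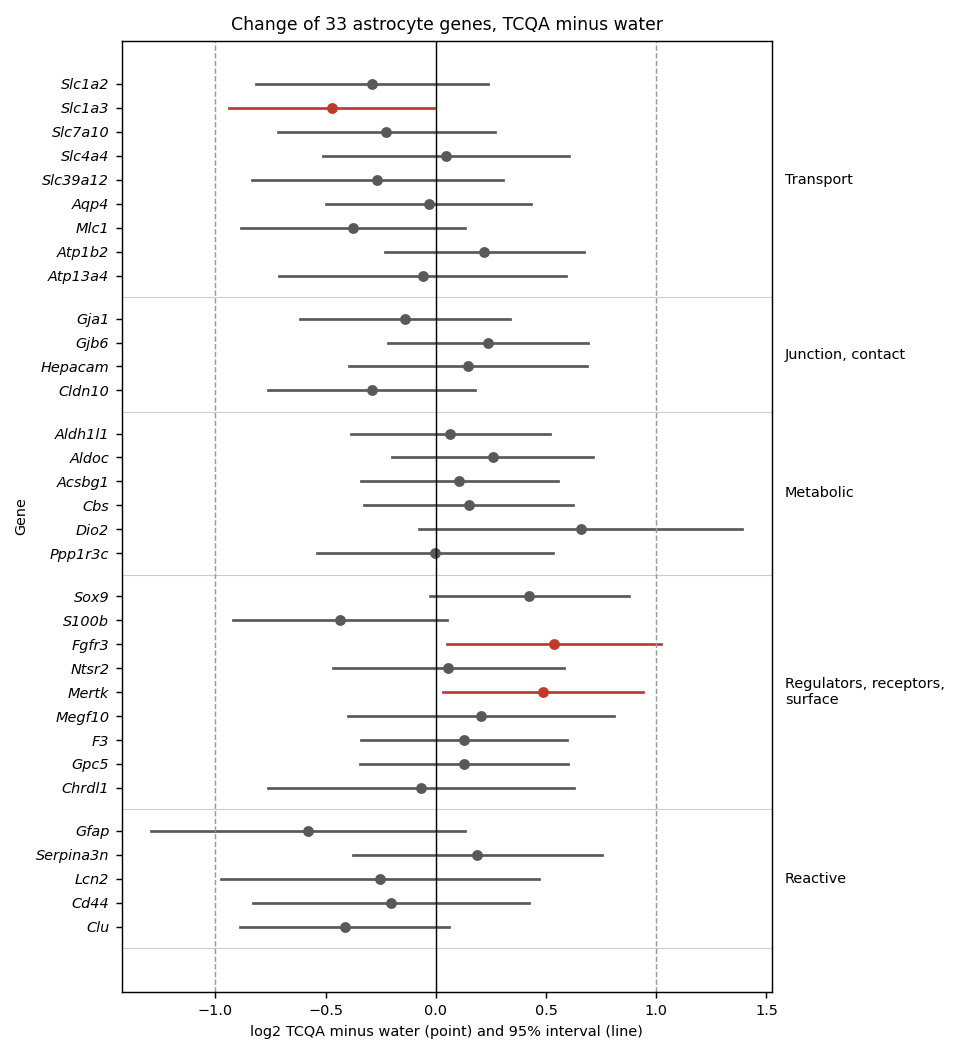
Log2 difference TCQA minus water (point) with limma's 95% interval (line) for the 33 astrocyte genes, by role; dashed lines mark a 2-fold change and red marks an unadjusted p under 0.05. The intervals of 30 genes include 0, those of Fgfr3 and Mertk lie above it and that of Slc1a3 lies below it.

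Sequences upstream of the start sites are shown for the 3 genes with an unadjusted p under 0.05 and for Gfap, the gene with the largest negative difference. They are the 250 bases before the RefSeq start on GRCm38.p6, read 5′ to 3′ on the gene's strand, and for Fgfr3 the upstream of its 2 listed starts was taken. Capitals mark matches, on either strand, to TTGGCA (nuclear factor I), TTCNNNGAA (STAT) or ACAAT (the core bound by SOX proteins).
Slc1a3 (chr15:8710808-8711057, minus strand): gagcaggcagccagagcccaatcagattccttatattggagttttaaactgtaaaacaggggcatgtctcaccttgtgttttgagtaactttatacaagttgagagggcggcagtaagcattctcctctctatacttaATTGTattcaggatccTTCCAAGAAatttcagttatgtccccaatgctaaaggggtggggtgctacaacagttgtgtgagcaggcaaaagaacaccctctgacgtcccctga
Fgfr3 (chr5:33721474-33721723, plus strand): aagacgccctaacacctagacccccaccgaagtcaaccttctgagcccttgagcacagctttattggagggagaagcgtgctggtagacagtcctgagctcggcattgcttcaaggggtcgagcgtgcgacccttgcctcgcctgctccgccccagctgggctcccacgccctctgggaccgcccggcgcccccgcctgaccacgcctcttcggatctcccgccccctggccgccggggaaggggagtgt
Mertk (chr2:128698665-128698914, plus strand): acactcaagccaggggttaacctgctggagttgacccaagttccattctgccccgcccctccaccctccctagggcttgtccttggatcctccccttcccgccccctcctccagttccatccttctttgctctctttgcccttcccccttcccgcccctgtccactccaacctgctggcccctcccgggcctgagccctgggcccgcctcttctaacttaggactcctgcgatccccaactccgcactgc
Gfap (chr11:102897201-102897450, minus strand): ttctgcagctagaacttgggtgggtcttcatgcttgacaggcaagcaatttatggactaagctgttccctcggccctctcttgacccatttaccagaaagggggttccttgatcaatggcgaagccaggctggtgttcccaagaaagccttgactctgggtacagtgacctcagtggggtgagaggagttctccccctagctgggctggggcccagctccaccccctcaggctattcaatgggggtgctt

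The Slc1a3 window held 1 STAT match, whose first base lay 96 bases before the start, and 1 SOX match 112 bases before it, and the 2 did not overlap. The windows shown for Fgfr3, Mertk and Gfap held none of these letters. Promoters were listed for 27 of the 33 genes, in 32 windows. TTGGCA was in 5 of the 32 (15.6%), against 12.3% of all 32851 windows of the same length. TTCNNNGAA was in 4 (12.5%), against 7.02%, and ACAAT in 3 (9.38%), against 27.7%. A match describes letters only, and the arrays measured no binding.

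Transport genes, which move glutamate, ions, water and amino acids across the astrocyte membrane, leaned to lower values after TCQA. Of the 9, 7 were lower and 2 higher, with a median log2 difference of -0.23. For 1 of them (11.1%, against 7.37% of all transcript clusters) the unadjusted p was under 0.05. The median was -0.086 without water 1, -0.14 without TCQA 1, -0.16 without water 2 and -0.18 without TCQA 2. Slc1a3, the glutamate-aspartate transporter GLAST, stood at 11.39 and 11.58 with TCQA and 12.02 and 11.90 with water. Both TCQA arrays were thus below both water arrays, by a difference of -0.47 (SE 0.19, limma, unadjusted p = 0.0474, adjusted p = 0.673), or 1.39-fold. That unadjusted p was above 0.05 in each fit without 1 array, in which the difference lay between -0.57 and -0.38. Slc1a2, GLT-1, which takes up most synaptic glutamate in the forebrain, stood at 16.88 and 16.61 with TCQA and 16.87 and 17.20 with water, and the groups overlapped.

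Mlc1, a membrane protein of astrocyte endfeet, stood at 10.97 and 11.10 with TCQA and 11.59 and 11.23 with water, without overlap, a difference of -0.38 (SE 0.21). Slc7a10, a transporter of small neutral amino acids, had 9.05 and 9.22 with TCQA and 9.50 and 9.22 with water, so that TCQA 2 and water 2 met. Slc39a12, a zinc transporter, was at 10.45 and 10.27 with TCQA and 10.87 and 10.37 with water, a spread within water that was wider than the group difference of -0.26. Aqp4, the water channel of the endfeet, was the transport gene with the smallest difference, -0.03 (95% interval -0.50 to 0.43), at 12.18 and 12.40 with TCQA and 12.33 and 12.32 with water.

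Slc4a4, the sodium bicarbonate cotransporter, differed by 0.05, with overlapping arrays. Atp1b2, a beta subunit of the sodium pump that also acts in adhesion, was at 13.26 and 13.18 with TCQA and 13.06 and 12.94 with water, above water in both arrays by 0.22 (SE 0.19). Atp13a4, a P-type ATPase, ranged from 5.60 to 6.27 over the arrays, all below the negative control median.

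Gap junction and contact genes showed no common direction. Of the 4, 2 were higher and 2 lower, with a median of 0.0048. The unadjusted p was under 0.05 for 0 of them, against 7.37% of all transcript clusters. Gja1, connexin-43, the main channel protein between astrocytes, was at 14.12 and 14.32 with TCQA and 14.45 and 14.27 with water. Gjb6, connexin-30, its partner in the astrocyte network, was at 10.57 and 10.66 against 10.31 and 10.44. The connexin pair thus pointed opposite ways, with an overlap for Gja1 (-0.14, SE 0.20) and none for Gjb6 (0.24, SE 0.19). Hepacam, an adhesion protein that binds Mlc1, stood at 10.61 and 10.21 with TCQA and 10.38 and 10.14 with water. Cldn10, a claudin, was at 9.61 and 9.48 against 9.73 and 9.94, lower in both TCQA arrays by -0.29 (SE 0.20).

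Metabolic genes leaned to higher values after TCQA, most of them by little. Of the 6 measured, 5 were higher and 1 lower, with a median of 0.13. The unadjusted p was under 0.05 for 0 of them, against 7.37% of all transcript clusters. The median was 0.05 without water 1 and 0.22 without water 2. Dio2, the deiodinase that makes active thyroid hormone in astrocytes, had the largest positive difference of the 33 genes, 0.66 (SE 0.30, limma, unadjusted p = 0.0707). It stood at 11.86 and 12.14 with TCQA and 10.93 and 11.75 with water, so that water 1 was the distant array and water 2 lay 0.10 below the nearer TCQA array. The difference was 0.25 without water 1 and 1.07 without water 2, where it passed both limits of the study.

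Aldoc, the astrocyte form of aldolase in glycolysis, was at 17.35 and 17.20 with TCQA and 17.07 and 16.97 with water, a difference of 0.26 (SE 0.19) without overlap. Acsbg1, which activates long fatty acids, was also above water in both arrays, at 13.44 and 13.50 against 13.31 and 13.40, a difference of 0.11 (SE 0.19). Aldh1l1, a folate enzyme and general astrocyte marker, differed by 0.07, with a 95% interval from -0.38 to 0.52. Cbs, of the transsulfuration pathway, differed by 0.15 (SE 0.20), with overlap. Ppp1r3c, which targets a phosphatase to glycogen, had the smallest difference of the 33 genes, -0.0033, with 12.42 and 12.48 with TCQA lying between 12.22 and 12.67 with water.

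Among regulators, receptors and surface proteins, 2 of 9 (22.2%) had an unadjusted p under 0.05, both higher after TCQA. The share over all transcript clusters was 7.37%, with 3.48% higher. Of the 9, 7 were higher and 2 lower, with a median of 0.13, which was 0.27 without water 1, 0.20 without TCQA 1, 0.09 without TCQA 2 and 0.03 without water 2. Fgfr3, the fibroblast growth factor receptor of the astrocyte lineage, stood at 12.19 and 12.48 with TCQA and 11.83 and 11.76 with water. The TCQA arrays were above both water arrays, by 0.54 (SE 0.20, limma, unadjusted p = 0.0347, adjusted p = 0.673), or 1.45-fold. That unadjusted p stayed under 0.05 without TCQA 1 (0.69) and was above it without TCQA 2 (0.39), water 1 (0.57) and water 2 (0.51).

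Mertk, a receptor with which astrocytes and microglia engulf synapses and debris, stood at 10.90 and 10.97 with TCQA and 10.52 and 10.38 with water. The difference was 0.49 (SE 0.19, limma, unadjusted p = 0.0393, adjusted p = 0.673), or 1.40-fold, and its unadjusted p was above 0.05 in each fit without 1 array (0.42 to 0.55). Markers of microglia, which also carry Mertk, were lower after TCQA for 8 of 9 genes. Their mean signal was 8.52 and 8.26 with TCQA and 8.55 and 8.47 with water, and their part in the Mertk value was not tested. Megf10, the other engulfment receptor, overlapped between groups at 8.22 and 8.58 against 8.44 and 7.95.

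Sox9, a transcription factor of astrocyte identity, was nearly equal in the TCQA arrays, at 9.60 and 9.62, and stood at 9.11 and 9.26 in the water arrays. Its difference of 0.42 (SE 0.19, limma, unadjusted p = 0.0619) lay between 0.35 and 0.50 when single arrays were left out. S100b, a calcium-binding protein that oligodendrocytes also make, pointed the other way, at 10.07 and 9.82 with TCQA against 10.30 and 10.46 with water, a difference of -0.44 (SE 0.20, limma, unadjusted p = 0.0710). Markers of myelinating oligodendrocytes were lower after TCQA for 9 of 11 genes, at a mean signal of 11.60 and 11.58 against 12.20 and 11.64, and their part in the S100b value was not tested.

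The other surface and secreted members differed little. Ntsr2, a neurotensin receptor, differed by 0.06, Gpc5, a glypican, by 0.13 and F3, tissue factor, by 0.13. F3 stood at 9.55 and 9.52 with TCQA and 9.52 and 9.30 with water, so that the groups met. Chrdl1, a secreted antagonist of bone morphogenetic proteins, differed by -0.07, with 8.66 and 8.60 with TCQA lying between 8.30 and 9.10 with water. Its water arrays were 0.80 apart, a wider gap than that of 94.4% of all named transcript clusters.

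Of the 5 reactive genes, 4 were lower and 1 higher after TCQA, with a median of -0.25. The unadjusted p was under 0.05 for 0 of them, against 7.37% of all transcript clusters. Of the 4 lower genes, Lcn2 and Cd44 lay below the negative control median, and their direction turned without 1 array, to 0.10 for Lcn2 without water 1 and to 0.09 for Cd44 without TCQA 2. The median of the 3 genes that either filter on dim signals left was -0.41. The median was -0.49 without TCQA 1, -0.46 without water 2, -0.05 without water 1 and -0.013 without TCQA 2. Gfap, the intermediate filament protein that marks reactive and white-matter astrocytes, had the largest negative difference of the 33 genes, -0.58 (SE 0.29, limma, unadjusted p = 0.0937). It stood at 10.43 and 10.62 with TCQA and 11.51 and 10.70 with water. Water 1 was the distant array, and water 2 lay 0.08 above the nearer TCQA array. The difference was -0.18 without water 1 and -0.98 without water 2, where its unadjusted p was under 0.05.

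Clu, clusterin, a secreted chaperone also made by ependyma, stood at 17.05 and 16.81 with TCQA and 17.39 and 17.29 with water, without overlap, a difference of -0.41 (SE 0.20, limma, unadjusted p = 0.0769). All 10 measured choroid plexus and ependyma markers were lower with TCQA, at a mean signal of 7.09 and 6.49 against 8.43 and 7.78. For 3 of the 10 the groups overlapped, and 5, among them Tmem212 and Ccdc153, lay below the negative control median in both groups. The part of these markers in the Clu value was not tested. Serpina3n, a protease inhibitor strongly induced in reactive astrocytes, overlapped between groups at 9.82 and 10.17 against 10.00 and 9.61. Lcn2, lipocalin, ranged from 3.60 to 4.44 and Cd44, the hyaluronan receptor, from 4.62 to 5.27, all below the negative control median.

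Water 1 stood apart for Gfap and Dio2, in opposite directions. The gap between the water arrays was 0.81 for Gfap and 0.82 for Dio2, the former wider than for 94.7% of all named transcript clusters. All 5 reactive genes, of which Lcn2 and Cd44 lay below the negative control median, were higher in water 1 than in water 2. Of the 6 metabolic genes, 5 were lower in water 1, and of all 33 genes 21 were higher in it. The matching share of all transcript clusters was not counted. Over the 33 genes, water 1 was the highest array for 11 and the lowest for 8, against 26.9% and 26.6% of all transcript clusters. Striatal markers were higher in water 1 than in water 2 for 8 of 8 genes, with a mean signal of 14.42 in water 1, 13.19 in water 2 and 13.39 and 12.79 in the TCQA arrays. Myelin markers were higher there for 11 of 11 genes and excitatory neuron markers for 0 of 11, with a mean signal of 12.10 in water 1 against 12.92 to 12.96 in the other arrays. The part of neighbouring tissue in the Gfap and Dio2 values was not tested.

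**Figure D3:**
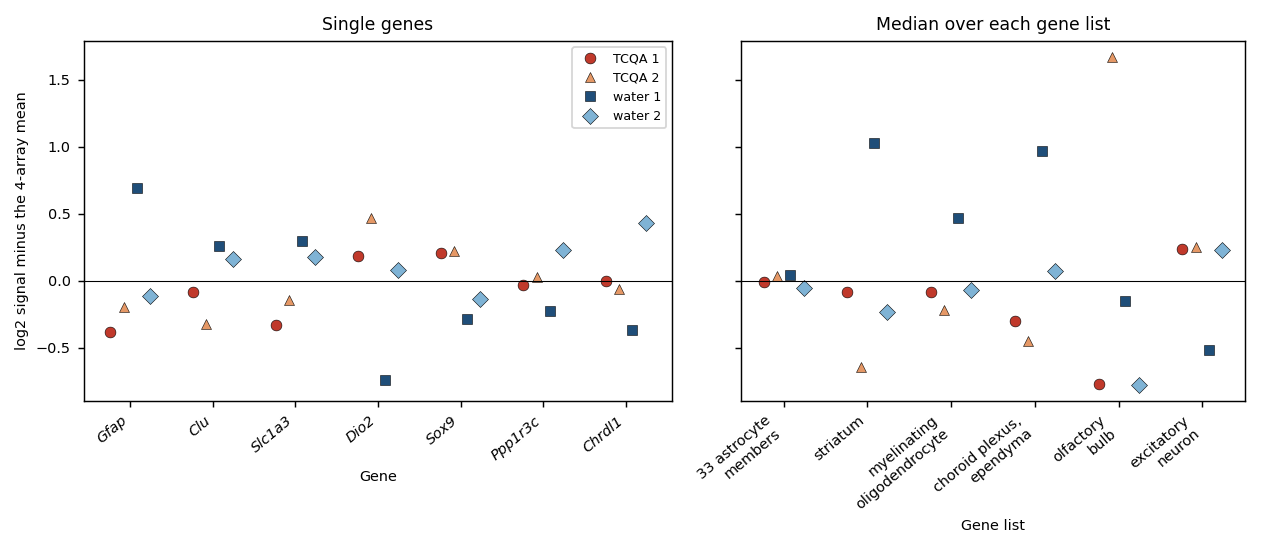
Log2 signal of each array minus the 4-array mean (y axis), for 7 astrocyte genes (left) and as the median over the 33 astrocyte genes and over marker lists of neighbouring tissue and other cells (right). Water 1 (dark squares) is highest for Gfap, Clu, Slc1a3, striatum, myelin and choroid plexus. It is lowest for Dio2, Sox9, Ppp1r3c, Chrdl1 and excitatory neurons. TCQA 2 (triangles) is highest for olfactory bulb, and the medians of the 33 genes lie between -0.05 and 0.04.

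For the 9 genes with a difference of 0.3 or more in size, the TCQA and water arrays did not overlap. Leaving out 1 array could therefore not turn their direction, which was the same in each of the 4 fits without 1 array. Over all 33 genes, the direction held in these fits for 22 and turned for 11. The 22 include the 16 genes without overlap (48.5%, against 39.2% of all transcript clusters), whose direction was fixed in the same way. Over all transcript clusters, the share whose direction held was not counted. Where an array is left out, the lone array of its group is assumed to vary like the other group. The count of 3 genes with an unadjusted p under 0.05 became 1 without TCQA 1 (Fgfr3), 0 without TCQA 2 (against 5.17% of all transcript clusters), 0 without water 1 (against 6.21%) and 2 without water 2 (Dio2 and Gfap, against 8.86%). When controls and unnamed probe sets also entered the variance prior, it was 1 (Fgfr3, against 5.03%).

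**Figure D4:**
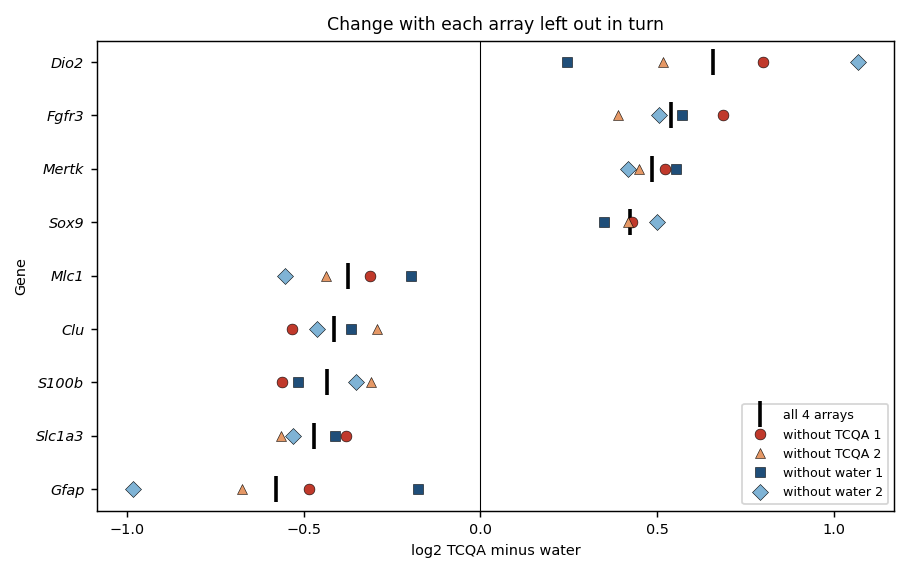
Log2 difference TCQA minus water (x axis) of the 9 astrocyte genes with a difference of 0.3 or more in size, with all 4 arrays (black bars) and with 1 array left out in turn (symbols). Gfap moves from -0.98 to -0.18 and Dio2 from 0.25 to 1.07, while Sox9 stays between 0.35 and 0.50 and Mertk between 0.42 and 0.55.

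Further genes of astrocyte biology, in 4 lists, also differed in both directions, and 0 of them passed the adjusted threshold of limma. Of 54 other identity genes, 27 were higher and 27 lower, with a median of 0.02. An unadjusted p under 0.05 was reached by 2 (3.7%, against 7.37% of all transcript clusters). Bmpr1b, a receptor of bone morphogenetic proteins, differed by 0.70 (SE 0.23) and Gli3, a factor of hedgehog signalling, by -0.64 (SE 0.24). Slc15a2, a peptide transporter, and Pla2g7, a phospholipase, followed with 0.45 and 0.43. Bmpr1b kept that p in 1 of the 4 fits without 1 array, the fit without TCQA 1, and Gli3 kept it without TCQA 1 and without water 2. Without TCQA 1 the count was 5 of 54 (9.26%, against 7.66% of all transcript clusters), and without TCQA 2 it was 1 (1.85%, against 5.17%).

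In a panel of 31 genes induced in reactive astrocytes, 18 were higher and 13 lower, with a median of 0.07. An unadjusted p under 0.05 was reached by 3 (9.68%, against 7.37% of all transcript clusters). Vim, the filament partner of Gfap, stood at 8.15 and 8.37 with TCQA and 7.76 and 7.07 with water, a difference of 0.85 (SE 0.27, limma, adjusted p = 0.673), where Gfap was lower. Endothelial cells also make Vim, and endothelial markers were higher after TCQA for 9 of 10 genes, with a mean signal of 9.97 and 9.95 against 9.57 and 9.67. Their part in the Vim value was not tested. Fkbp5, a cochaperone of the glucocorticoid receptor, was higher by 0.95 (SE 0.26), and Cd109, a surface protein below the negative control median in both groups, was lower by -0.61 (SE 0.19). Vim and Fkbp5 lost that p without TCQA 2 and without water 2, and Cd109 lost it without TCQA 1 and without water 2. Fbln5, a matrix protein, differed by 0.59. Of the 31, 24 lay below the negative control median in both groups, and without water 1 the count was 5 of 31 (16.1%, against 6.21% of all transcript clusters).

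Genes of the glutamate-glutamine cycle other than the members were higher for 9 of 13, with a median of 0.14. An unadjusted p under 0.05 was reached by 2 (15.4%, against 7.37% of all transcript clusters). Slc38a2, a glutamine transporter, stood at 14.79 and 14.88 with TCQA and 13.99 and 14.03 with water, a difference of 0.83 (SE 0.18, limma, adjusted p = 0.642), and its unadjusted p was under 0.05 in each fit without 1 array. Slc1a1, the glutamate transporter of neurons, was at 11.25 and 11.77 against 10.93 and 10.72, a difference of 0.69 (SE 0.24), opposite in sign to Slc1a3 and Slc1a2. Excitatory neuron markers were higher after TCQA for 10 of 11 genes. Their mean signal was 12.96 and 12.93 with TCQA, 12.10 in water 1 and 12.92 in water 2, and their median difference was -0.04 without water 1. Their part in the Slc38a2 and Slc1a1 values was not tested. Without TCQA 2 and without water 2, Slc38a2 alone had an unadjusted p under 0.05, against both genes with all arrays. Pcx, pyruvate carboxylase, and Slc17a6, a vesicular glutamate transporter, differed by -0.23 and 0.24, with overlap.

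Of 18 endfoot and junction partner genes, 10 were higher and 8 lower, with a median of 0.05. An unadjusted p under 0.05 was reached by 1 (5.56%, against 7.37% of all transcript clusters). Agrn, agrin, a basement membrane proteoglycan at the endfeet, stood at 11.26 and 11.05 with TCQA and 11.77 and 11.87 with water, a difference of -0.67 (SE 0.19, limma, adjusted p = 0.664), and was the 1 gene of the list with an unadjusted p under 0.05. It was above 0.05 without TCQA 2 and without water 2. Cav1, a caveolar coat protein, differed by 0.41, Gjc3, a connexin of oligodendrocytes, by 0.52 and Gjb1, another, by -0.27. These 4 lists were chosen with earlier results of these arrays known.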

How the data were processed

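Cortex RNA of 4 arrays (2 TCQA, 2 water) was analysed from the deposited log2 signals per transcript cluster. The authors made them from the scanned images in Transcriptome Analysis Console 4.0.2 by signal space transformation RMA, per the labels and design text, after hybridising 100 ng of RNA. RMA equalises arrays, so the values carry no depth, and this transformation can widen fold changes. The labels and design text name no build for the array values.

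Symbols came from the platform annotation. The 19572 named transcript clusters were fitted with limma 3.58.1 in R 4.3.3 (lmFit and eBayes, 2-sided, no block). Benjamini-Hochberg adjustment was over all of them. The fit was also run on independent arrays simulated from its own variance prior, which cannot test whether that model holds for these arrays. Groups came from the labels. Members and lists were chosen with earlier results of these data known. All members are named, with the 4 smallest p-values of each other list. Alternatives covered the prior, array weights, normalisation, dim signals, moderation, a block on replicate number and leaving out each array. Promoters are RefSeq's, on GRCm38.p6. The labels do not say whether replicate numbers pair samples. The replicate 1 minus replicate 2 differences of TCQA and water had r = -0.0032 across transcript clusters, which cannot exclude pairing. Figures used matplotlib 3.10.9 in Python 3.11.15.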

Additional observations from a re-analysis of the deposited data

How the results depend on the processing

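Counts of astrocyte genes with an unadjusted p under 0.05 (3 of 33) were 8 with limma-trend (8.12% of all transcript clusters), 1 with the prior fitted over every probe set (5.03%), and 6 with either dim-signal filter, which leaves 30 of the genes and raises the share over all transcript clusters to 9.17% and 9.18%. They were 0 to 2 without single arrays, 2 with the replicate block (Fgfr3 and Dio2, 7.65% of all), which lost Mertk and Slc1a3, and 2 without moderation (Mertk and Sox9, 6.75%), which lost Fgfr3 and Slc1a3. Quantile normalisation kept the count at 3 but lost Mertk and gained S100b. The count past the study's criteria was 0 to 1 without single arrays. Medians under quantile normalisation were -0.0072 for all members, -0.067 for junction, 0.067 for metabolic, 0.069 for regulator and surface, -0.044 for other identity and 0.020 for endfoot genes. Medians without single arrays ran from -0.0079 to 0.078 for all members, -0.18 to -0.086 for transport, -0.081 to 0.061 for junction, 0.049 to 0.22 for metabolic, 0.028 to 0.27 for regulator and surface and -0.49 to -0.013 for reactive genes. For other identity genes they ran from -0.042 to 0.093, for the reactive panel from -0.0065 to 0.075, for the glutamate-glutamine cycle from 0.077 to 0.24 and for endfoot partners from -0.025 to 0.027. Counts without single arrays were 1 to 5, 2 to 5, 1 to 2 and 0 to 2 in those lists. Other identity genes gave 4 with limma-trend and with either filter and 1 with the prior over every probe set. Without moderation the counts were 1, 1 and 2 for the reactive panel, the cycle and the endfoot list, and the endfoot list had 2 under quantile normalisation. The reactive panel median was 0.28 with either filter. Quantile normalisation turned Slc4a4 (-0.0072), Aldh1l1 (-0.00054) and Ntsr2 (-0.0066). Without single arrays the direction turned for Slc4a4 (-0.16 to 0.25), Aqp4 (-0.14 to 0.078), Atp13a4 (-0.39 to 0.27), Hepacam (-0.050 to 0.35), Ppp1r3c (-0.23 to 0.22), Ntsr2 (-0.15 to 0.27), Megf10 (-0.041 to 0.45), Chrdl1 (-0.47 to 0.33), Serpina3n (-0.0079 to 0.39), Lcn2 (-0.60 to 0.10), Cd44 (-0.49 to 0.089), Pcx (-0.50 to 0.031) and Slc17a6 (-0.072 to 0.56). The cause of these shifts was not tested. Averaging rows of a symbol changed nothing, since each member had 1 row.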

Other observations

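Fabp7, the brain fatty acid binding protein of astrocytes and olfactory ensheathing cells, was chosen after its values were seen. Its signal was 15.47 on array TCQA 2, against 13.06 on TCQA 1 and 13.70 and 13.54 on the water arrays. Olfactory bulb markers had a mean signal of 8.16 on TCQA 2, against 6.06 on TCQA 1 and 6.52 and 6.31 on the water arrays, and their part in the Fabp7 value was not tested.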
